A study of Mus musculus with 4 samples.

Results

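The genes described here are 10 members of the iron, BMP and hepcidin axis, chosen by their symbols from the 24346 gene symbols in the deposited tables. They are Hamp and Hamp2, which encode hepcidins, the BMP ligands Bmp2 and Bmp6, the BMP target genes Id1 and Smad7, the transferrin receptors Tfr2 and Tfrc, the protease gene Tmprss6 and the iron exporter gene Slc40a1. All 10 were listed in every library. RNA sequencing covered the liver of male ob/ob mice, which lack leptin and become obese, fed from 6 weeks of age for 4 weeks. CD was a chow diet and WD a high fat diet, both with 1% cholesterol, and CD+7KC and WD+7KC were the same diets with 0.01% 7-ketocholesterol (7KC), an oxidized cholesterol. Each group had 1 library, the number of mice behind a library is not given in the sources used here, and no lean or wild-type mice are among the groups. The differences below are therefore differences between single libraries, with no replicates and no p-values.

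Hepcidin is a small peptide hormone made mainly by hepatocytes. It binds ferroportin, the only known cellular iron exporter (the product of Slc40a1), and has it degraded, which keeps iron inside macrophages and enterocytes. Liver sinusoidal endothelial cells secrete BMP2 and BMP6, of which BMP6 is the more tied to iron loading. Both ligands act through SMAD proteins in hepatocytes to raise hepcidin, together with Id1 and the feedback inhibitor Smad7. TMPRSS6, also called matriptase-2, cleaves the BMP co-receptor hemojuvelin and lowers the signal, and TFR2 senses iron-loaded transferrin. Inflammation raises hepcidin by another route, from interleukin 6 through STAT3.

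Levels are FPKM, in which fragment numbers are divided by transcript length and by library depth, so that genes of unequal length can be compared. Steps between low FPKM values corresponded to 9400000 mapped fragments in WD, 10940000 in CD, 11000000 in CD+7KC and 12110000 in WD+7KC, and 70.9% to 72.1% of the low values were whole read numbers to within 0.1. Exact (Clopper-Pearson) 95% counting intervals of the differences rest on these estimated reads and cover counting error only, not the variation between mice. Differences are log2 ratios of FPKM + 0.1, and those above 1 or below -1 were counted. The summed FPKM was 602059 in WD+7KC and 696062 to 715605 in the other libraries. Rescaling to equal sums (TPM) therefore moved the all-gene median of the log2 difference from 0.002 to 0.21 for WD+7KC relative to WD, and from 0.003 to 0.20 for WD+7KC relative to CD+7KC. The hepatocyte gene Alb, for albumin, was at 30014 to 35981 FPKM.

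Hamp and Hamp2 are neighbours on the minus strand of chromosome 7, Hamp at chr7:30942368-30944032 and Hamp2 at chr7:30922372-30924681 (GRCm38). Their start regions are shown because both genes are hepcidin genes and their levels moved differently. Each line is the 120 bases before the RefSeq start site (GRCm38.p6, minus strand), Hamp at chr7:30944030-30944149 and Hamp2 at chr7:30924182-30924301. The first capitals mark the BMP-responsive element core GGCGCC in Hamp and the aligned bases in Hamp2, and the second mark the STAT palindrome TTCNNNGAA.
Hamp: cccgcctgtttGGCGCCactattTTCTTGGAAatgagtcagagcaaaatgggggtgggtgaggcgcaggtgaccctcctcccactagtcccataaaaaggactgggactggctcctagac
Hamp2: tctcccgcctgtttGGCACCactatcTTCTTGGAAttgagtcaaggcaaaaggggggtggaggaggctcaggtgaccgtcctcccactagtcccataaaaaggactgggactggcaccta
Over the 250 bases before the start sites, 227 of 253 aligned columns were identical. The BMP element differed by the substitution G4A (counted from 1 at the 5′ end of the element, Hamp base first), so GGCGCC was present in the Hamp window and not in the Hamp2 window, while the STAT palindrome TTCTTGGAA was the same in both. GGCGCC occurred on either strand in 11.9% of all 32817 promoter windows of 300 bases and TTCNNNGAA in 8.29%, so neither motif is rare. Promoter windows were held for 5 of the 10 genes. Of the others, 1 of the 2 windows of Tfrc also contained GGCGCC, the other Tfrc window, that of Bmp6 and the 3 of Tfr2 did not, and none of them contained TTCNNNGAA. CACGTG, an E-box, was present in the Bmp6 window and in 7.15% of all windows, and TATAAA was in none of the members' windows. A match describes letters in a window and does not show that a factor bound there.

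Hamp was at 1464 FPKM (CD), 905 FPKM (CD+7KC), 2027 FPKM (WD) and 1264 FPKM (WD+7KC). It ranked 55 among all genes by mean level, and under each diet the library with 7KC was the lower. The log2 difference was -0.69 (95% counting interval -0.77 to -0.62) in CD+7KC relative to CD and -0.68 (-0.75 to -0.61) in WD+7KC relative to WD, or -0.65 and -0.46 after rescaling to equal sums. The difference between these values, WD minus CD, was 0.01 (counting interval -0.09 to 0.12) with the deposited scaling and 0.19 (0.09 to 0.29) after rescaling, so whether 7KC went with an equally lower Hamp level under both diets depends on the scaling. WD was above CD by 0.47 (0.40 to 0.54), and WD+7KC above CD+7KC by 0.48 (0.40 to 0.56). All neighbours in the order WD, CD, WD+7KC, CD+7KC differed by more than counting error, although the interval for CD against WD+7KC included 0 after rescaling. Relative to Alb in the same library, a ratio that no scaling changes, Hamp was 4.17% (CD), 2.90% (CD+7KC), 5.63% (WD) and 4.21% (WD+7KC).

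Hamp2 was at 36.8 FPKM (CD), 237 FPKM (CD+7KC), 159 FPKM (WD) and 131 FPKM (WD+7KC). The CD library stood far below the other libraries. The log2 difference was 2.69 (2.38 to 3.02) in CD+7KC relative to CD, a 6.45-fold higher level, and 2.11 (1.79 to 2.46) in WD relative to CD. Both comparisons share the CD library and rest on its 95 estimated reads. In WD+7KC relative to WD the difference was -0.27 (-0.49 to -0.06), or -0.06 with an interval that included 0 after rescaling, and in WD+7KC relative to CD+7KC it was -0.85 (-1.04 to -0.67).

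Of the summed FPKM of the hepcidin genes, Hamp2 made up 2.45% in CD (exact interval 1.98 to 2.98), 20.8% in CD+7KC (19.3 to 22.3), 7.26% in WD (6.55 to 8.04) and 9.41% in WD+7KC (8.52 to 10.4). None of these intervals overlapped. The sum itself was 1501 FPKM (CD), 1142 FPKM (CD+7KC), 2186 FPKM (WD) and 1396 FPKM (WD+7KC), and kept the order of CD above CD+7KC and WD above WD+7KC. It adds RNA levels and does not show how far the product of either gene acts on iron. The transcripts are short (410 bases for Hamp and 437 for Hamp2) and 94.6% identical over 410 aligned bases. Of the 336 windows of 75 bases in the Hamp transcript, the read length used, 13 occur unchanged in Hamp2 and 171 occur there with at most 2 mismatches. How reads were divided between the genes was not tested, and the low Hamp2 level in CD is uncertain for that reason.

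**Figure D1:**
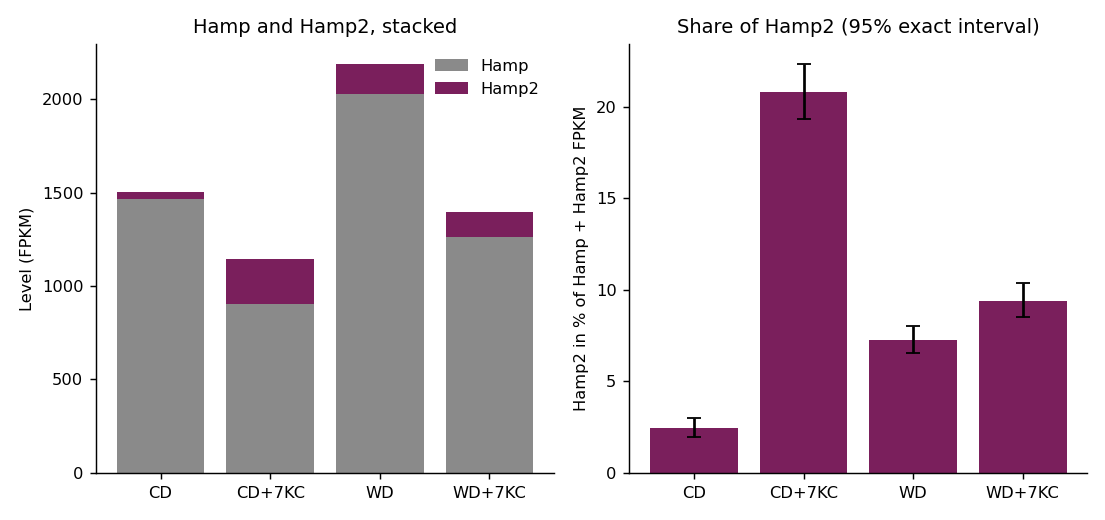
Left, stacked bars of the Hamp and Hamp2 level (FPKM) in each library. Right, Hamp2 in percent of their sum with exact 95% counting intervals: 2.45% (CD), 20.8% (CD+7KC), 7.26% (WD) and 9.41% (WD+7KC).

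Bmp2 (chr2:133552159-133562885), a ligand that endothelial cells send to hepatocytes, was at 2.91 FPKM (CD), 3.79 FPKM (CD+7KC), 2.10 FPKM (WD) and 6.29 FPKM (WD+7KC). WD+7KC was highest and WD lowest. In WD+7KC relative to WD the log2 difference was 1.54 (1.19 to 2.003), a 2.99-fold higher level resting on 66 and 256 estimated reads in WD and WD+7KC. The CD+7KC library exceeded CD by 0.37 (0.01 to 0.76), and in WD relative to CD it was -0.45 (-0.94 to -0.02), with an interval that included 0 after rescaling. The 7KC difference under WD exceeded that under CD by 1.17 (0.64 to 1.70, counting error only).

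Bmp6 (chr13:38345107-38500302), the ligand most tied to iron loading, was lower than Bmp2 in every library. It was at 0.658 FPKM (CD), 1.15 FPKM (CD+7KC), 1.005 FPKM (WD) and 1.38 FPKM (WD+7KC), on 24 to 57 estimated reads. Both 7KC libraries were above their diet's control. The difference was 0.72 (0.08 to 1.62) in CD+7KC relative to CD and 0.42 (-0.18 to 1.14) in WD+7KC relative to WD, where it was not detectable at this depth with the deposited scaling, and 0.62 (0.03 to 1.36) after rescaling. No neighbours in the order of its levels differed beyond counting error. Bmp2 exceeded Bmp6 by 4.43-fold (CD), 3.302-fold (CD+7KC), 2.09-fold (WD) and 4.57-fold (WD+7KC).

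Markers of sinusoidal endothelial cells moved with Bmp2. All 8 of the list (Stab1, Stab2, Lyve1, Clec4g, Kdr, Pecam1, Cdh5 and Gpr182) were above 0 in each library, and their summed level was 65.5 FPKM (CD), 95.5 FPKM (CD+7KC), 52.5 FPKM (WD) and 150.2 FPKM (WD+7KC). In WD+7KC relative to WD all 8 had log2 differences above 1, with a median of 1.54, from Pecam1 at 1.07 to Kdr, a VEGF receptor gene, at 1.95. With 7KC under CD 7 of 8 were higher and none passed 1, from Lyve1 at -0.46 to Clec4g at 0.89, with a median of 0.48. As a percent of the summed markers, Bmp2 was 4.45% in CD (counting interval of Bmp2 3.64 to 5.37), 3.97% in CD+7KC (3.34 to 4.69), 4.00% in WD (3.09 to 5.09) and 4.19% in WD+7KC (3.69 to 4.73). Bmp2 thus kept a near-constant ratio to the summed markers, and all these intervals overlapped. Clec4g weighed most in the sum, at 26.3 FPKM (CD), 48.7 FPKM (CD+7KC), 22.6 FPKM (WD) and 64.2 FPKM (WD+7KC). The ratio to a single marker can differ, as for Lyve1, the 1 marker that was lower with 7KC under CD. Bmp6 was 1.004% in CD (0.64 to 1.49), 1.20% in CD+7KC (0.87 to 1.62), 1.91% in WD (1.31 to 2.70) and 0.92% in WD+7KC (0.69 to 1.19), so that the WD interval lay above that of WD+7KC. In bulk tissue, more cells of a type and more RNA per cell cannot be told apart.

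**Figure D2:**
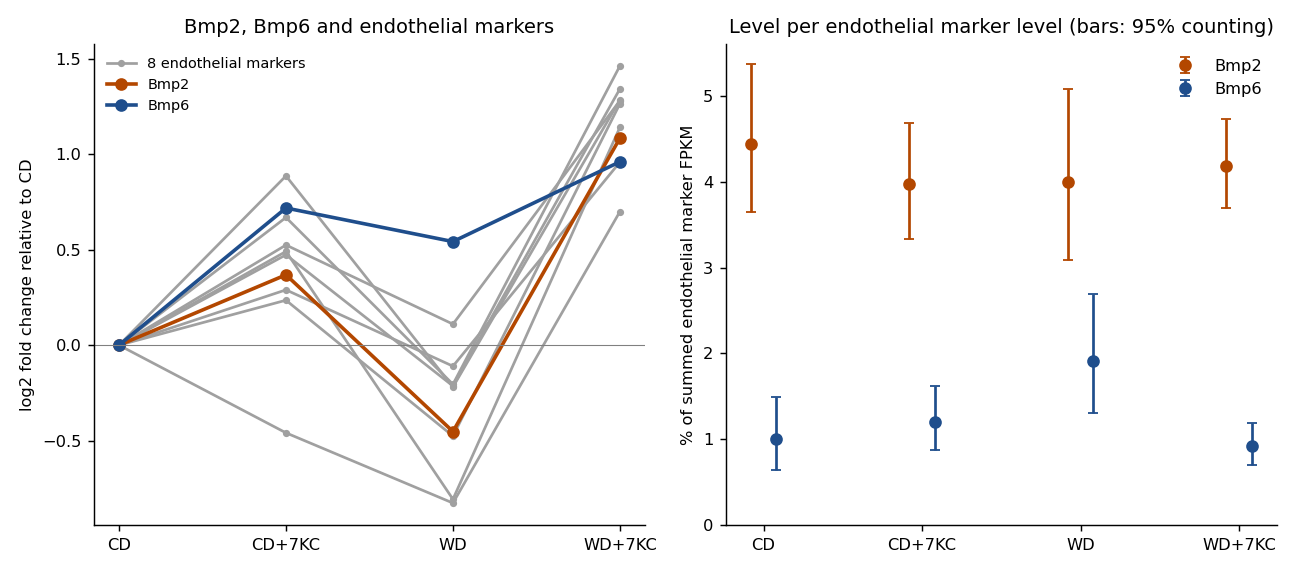
Left, log2 fold change relative to CD of Bmp2, Bmp6 and 8 sinusoidal endothelial markers in each library. Right, Bmp2 and Bmp6 in percent of the summed marker FPKM with 95% counting intervals; Bmp2 stays between 3.97% and 4.45% while its level varies 2.99-fold.

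Id1 (chr2:152736251-152737410), a transcriptional regulator induced directly by BMP-SMAD signals in hepatocytes and endothelial cells, was at 8.36 FPKM (CD), 6.34 FPKM (CD+7KC), 8.42 FPKM (WD) and 14.4 FPKM (WD+7KC). The WD+7KC library stood above the others, which did not differ from their neighbours in order beyond counting error. The log2 difference was 0.77 (0.32 to 1.25) in WD+7KC relative to WD and 1.17 (0.71 to 1.69) in WD+7KC relative to CD+7KC. Under CD it was -0.39 (-0.96 to 0.15), not detectable at this depth. Hamp, which answers to the same signal in hepatocytes, was 175 times the Id1 level (CD), 143 times (CD+7KC), 241 times (WD) and 87.5 times (WD+7KC). The part of the endothelial markers in the Id1 difference was not tested.

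Smad7 (chr18:75367529-75395935), the inhibitory SMAD, was flat by comparison. It was at 1.78 FPKM (CD), 1.62 FPKM (CD+7KC), 2.09 FPKM (WD) and 2.03 FPKM (WD+7KC). The 4 levels lay within 1.29-fold of each other, and no comparison had a counting interval that left out 0 with the deposited scaling. After rescaling, WD+7KC was above CD+7KC by 0.51 (0.07 to 0.98).

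Tmprss6 (chr15:78439667-78468634), whose protease lowers the hepcidin signal, had the steadiest level of the 10 genes. It was at 172 FPKM (CD), 173 FPKM (CD+7KC), 159 FPKM (WD) and 148 FPKM (WD+7KC), a span of 1.18-fold. The log2 difference in WD+7KC relative to WD, -0.10 (-0.16 to -0.05), turned to 0.11 after rescaling to equal sums, so its direction depends on the scaling. With upper-quartile scaling it was -0.06 and with median-ratio scaling -0.10. In CD+7KC relative to CD it was 0.01 (-0.04 to 0.06).

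Tfr2 (chr5:137569840-137587481), the hepatocyte sensor of iron-loaded transferrin, was at 90.8 FPKM (CD), 77.7 FPKM (CD+7KC), 80.3 FPKM (WD) and 66.1 FPKM (WD+7KC). It was lower with 7KC under both diets, by log2 differences of -0.22 (-0.31 to -0.14) in CD+7KC relative to CD and -0.28 (-0.37 to -0.19) in WD+7KC relative to WD. The latter was -0.07 with an interval that included 0 after rescaling. WD and CD+7KC, neighbours in order, did not differ beyond counting error.

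Tfrc (chr16:32608920-32632794), the receptor that takes up transferrin iron in most cells and is high in red cell precursors, went the other way. It was at 4.62 FPKM (CD), 5.12 FPKM (CD+7KC), 5.69 FPKM (WD) and 7.99 FPKM (WD+7KC), again with WD+7KC on top. The log2 difference was 0.48 (0.26 to 0.72) in WD+7KC relative to WD and 0.63 (0.42 to 0.87) in WD+7KC relative to CD+7KC. Under CD it was 0.15 (-0.11 to 0.41), WD was above CD by 0.29 (0.04 to 0.56), and the order among the other libraries was not resolved between neighbours. The Tfr2 level was 19.6 times that of Tfrc (CD), 15.2 times (CD+7KC), 14.1 times (WD) and 8.27 times (WD+7KC), a ratio that no scaling changes. The globin gene Hba-a1, an erythroid marker, was at 89.8 FPKM (CD), 54.5 FPKM (CD+7KC), 146 FPKM (WD) and 70.0 FPKM (WD+7KC), and so was not highest where Tfrc was highest.

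Slc40a1 (chr1:45908068-45926523), which encodes ferroportin, was at 76.2 FPKM (CD), 60.3 FPKM (CD+7KC), 51.8 FPKM (WD) and 57.8 FPKM (WD+7KC). CD was highest and WD lowest. The log2 difference was -0.34 (-0.42 to -0.25) in CD+7KC relative to CD and 0.16 (0.06 to 0.25) in WD+7KC relative to WD, or 0.37 after rescaling. In WD relative to CD it was -0.55 (-0.65 to -0.46), while WD+7KC and CD+7KC did not differ beyond counting error with the deposited values (-0.06, or 0.15 after rescaling). Kupffer cells, the liver macrophages that recycle red cell iron, express this gene strongly. The summed level of 9 Kupffer cell markers, all above 0 in each library, was 111 FPKM (CD), 202 FPKM (CD+7KC), 213 FPKM (WD) and 423 FPKM (WD+7KC), so that Slc40a1 was highest where this sum was lowest. Single markers differed in this. In WD relative to CD 8 of the markers were higher and 1 was lower, Cd163 at -0.59. Cd163 was at 1.14 FPKM in CD and lowest in WD, at 0.727 FPKM, the library where Slc40a1 was also lowest. In WD+7KC relative to WD all 9 markers were higher, from Marco at 0.65 to Adgre1 at 1.55 with a median of 1.09, and in CD+7KC relative to CD all 9 were higher, from Marco at 0.29 to Cd163 at 1.27 with a median of 0.94. The part of these cells in the Slc40a1 level was not tested.

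**Figure D3:**
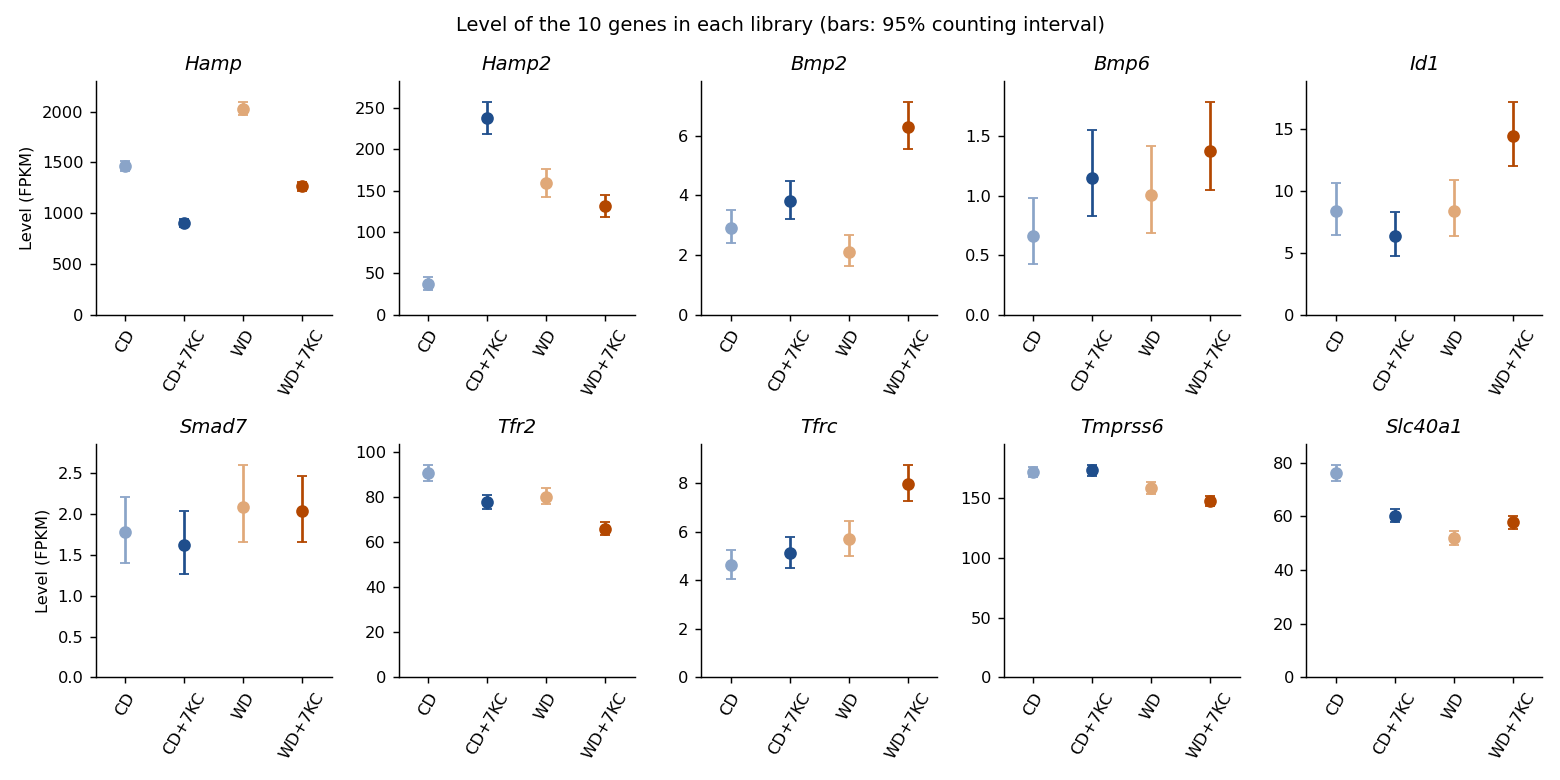
Level (FPKM, linear axes from 0) of the 10 genes in each library, with exact Poisson 95% counting intervals as bars. Hamp is lower with 7KC under both diets, Hamp2 is lowest in CD at 36.8 FPKM, and Bmp2, Id1 and Tfrc are highest in WD+7KC.

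Counted over the 10 genes, 1 was above 1 in each comparison and none below -1 (with 1 library per group, no test stands behind these counts). Bmp2 was the gene above 1 in WD+7KC relative to WD. There 6.21% of all genes with values were above 1 and 2.79% below -1, and among genes with at least 1 FPKM in either library 3.74% were above 1 and 0.968% below -1. Hamp2 was the gene for CD+7KC relative to CD, where these shares were 3.84% and 2.91% of all genes, and 1.57% and 1.08% at 1 FPKM or more. It was again Hamp2 for WD relative to CD, with shares of 5.31% and 4.38% of all genes, and 3.04% and 2.5% at 1 FPKM or more. Id1 was the gene for WD+7KC relative to CD+7KC, with shares of 8.01% and 4.61% of all genes, and 6.21% and 3.15% at 1 FPKM or more. A count of 1 in 10 is near these shares and says nothing particular of the axis. The median log2 difference of the 10 genes was 0.06 in WD+7KC relative to WD and -0.06 in CD+7KC relative to CD, with 5 higher and 5 lower in both, beside medians of 0.002 and -0.001 over all genes. After rescaling, 7 were higher and 3 lower in WD+7KC relative to WD, with a median of 0.27, beside 0.21 over all genes. It was 0.12 in WD relative to CD and 0.28 in WD+7KC relative to CD+7KC, beside 0.01 and 0.003. After rescaling the latter was 0.47 (7 higher, 3 lower), beside 0.20 over all genes. Counting intervals left out 0 for 8 of 10 genes in WD+7KC relative to WD (4 higher, 4 lower), and after rescaling for 7 (6 higher, 1 lower). Of 10359 genes of at least 1 FPKM with a RefSeq mRNA, they lay above 0 for 16.0% and below 0 for 20.5% there, and after rescaling for 38.5% and 5.66%. In CD+7KC relative to CD they left out 0 for 6 of 10 genes (3 higher, 3 lower) with either scaling, beside 13% above and 15.4% below 0 among 10085 genes, or 17.0% and 11.9% after rescaling. These shares depend on the read number of a gene, and the members were not matched to the other genes on it.

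**Figure D4:**
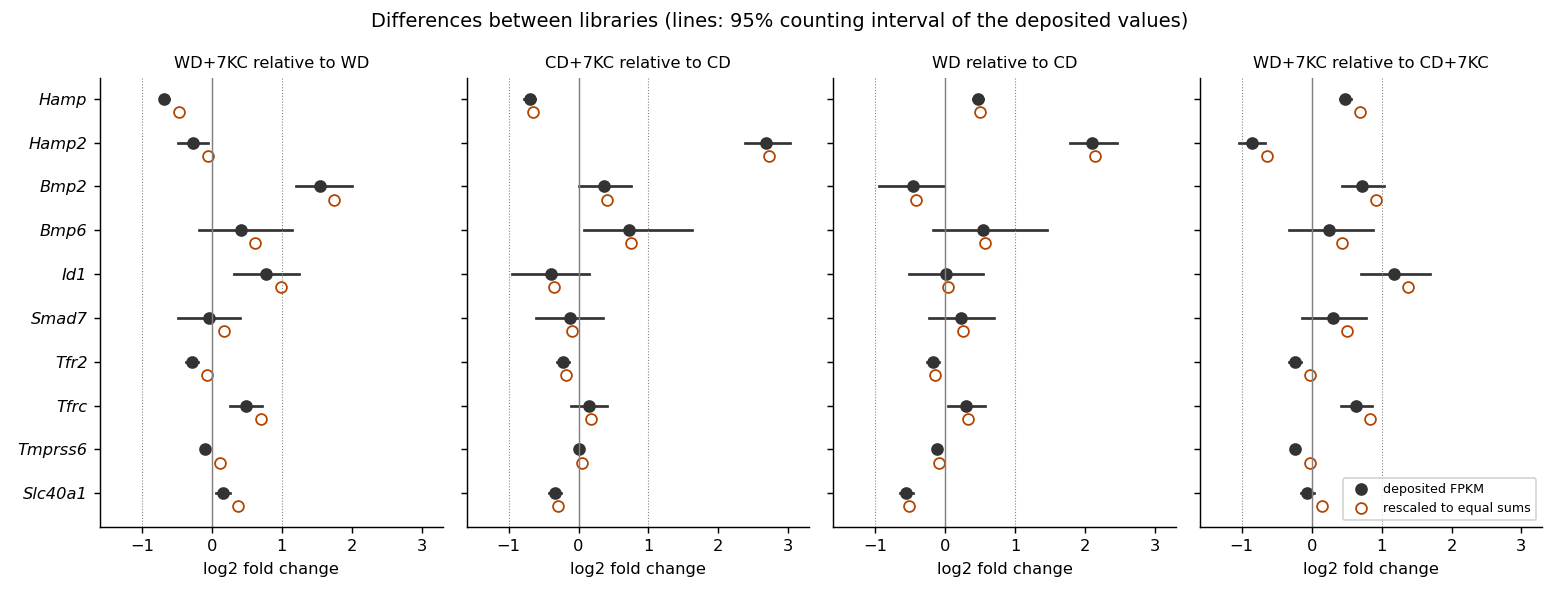
Log2 fold change of each gene in the 4 comparisons; filled points and lines are the deposited values with 95% counting intervals, open points the values after rescaling to equal sums, and dotted lines mark -1 and 1. Bmp2 at 1.54, Hamp2 at 2.69 and 2.11 and Id1 at 1.17 are the values past 1.

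Of 20 other genes that control hepcidin, none was above 1 or below -1 in WD+7KC relative to WD, with 11 higher, 9 lower and a median of 0.01, and after rescaling 17 were higher with a median of 0.21. With 7KC under CD there were 6 higher and 14 lower genes, and a median of -0.13, and 1 was below -1, the receptor-activated SMAD gene Smad9, at 2.14 FPKM without and 0.873 FPKM with 7KC (-1.20). In WD relative to CD 11 were higher, 9 were lower and the median was 0.03, from Smad6 at -0.83 to Fkbp1a, which encodes a protein that holds BMP receptors inactive, at 0.81. The inhibitory Smad6 also had the highest value in WD+7KC relative to WD, at 0.76, and Atoh8, a BMP-responsive transcription factor gene, the lowest, at -0.65. Id3, a relative of Id1, was at 41.7 FPKM (CD), 32.2 FPKM (CD+7KC), 49.6 FPKM (WD) and 63.7 FPKM (WD+7KC), the highest value of the list in WD+7KC relative to CD+7KC at 0.98, where 11 were higher, 9 were lower and the median was 0.09. After rescaling, 17 were higher and 3 lower in that comparison, the median was 0.29, and 2 genes were above 1, Id3 at 1.19 and Smad9 at 1.05. Hfe2, the older symbol of the hemojuvelin gene, was the highest in CD+7KC relative to CD at 0.30, and Smad4, the shared partner of the receptor-activated SMADs, the lowest in WD+7KC relative to CD+7KC at -0.48.

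Among 20 listed genes of iron transport, storage and heme handling, none passed 1 or -1 in WD+7KC relative to WD (7 higher, 13 lower, median -0.03, or 17 higher and 3 lower after rescaling). Hmox1, the heme oxygenase that frees iron from heme, had the highest value there, 0.73, and the metalloreductase gene Steap3 the lowest, -0.37. With 7KC under CD, 13 genes were higher, 7 were lower and the median was 0.03, and Hmox1 was the gene below -1, at -1.13. Hmox1 was at 42.4 FPKM (CD), 19.3 FPKM (CD+7KC), 19.9 FPKM (WD) and 33.1 FPKM (WD+7KC), with the CD+7KC library lowest. The ferritin light chain gene Ftl1 had the highest value in that comparison, 0.23, and the heavy chain gene Fth1 was at 3392 FPKM (CD), 3916 FPKM (CD+7KC), 3929 FPKM (WD) and 3944 FPKM (WD+7KC). In WD relative to CD 15 were higher and 5 lower, with Lcn2, which encodes the siderophore-binding lipocalin 2, at 1.56 and Hmox1 at -1.08. Lcn2 was at 52.3 FPKM (CD), 57.8 FPKM (CD+7KC), 155 FPKM (WD) and 241 FPKM (WD+7KC). Ireb2, for the iron-regulatory protein IRP2, had the lowest value in WD+7KC relative to CD+7KC, -0.54, where 11 were higher and 9 lower (13 and 7 after rescaling) and Lcn2, at 2.06, was the gene above 1.

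None of the 15 listed genes of the interleukin 6 and STAT3 acute phase route was past 1 or -1 in any comparison. That list left out Lcn2, Hp and Hpx, which were counted with the iron genes. Among these, Lcn2 was above 1 in WD relative to CD (1.56) and in WD+7KC relative to CD+7KC (2.06). Il6 was listed at 0 FPKM in all 4 libraries. Of the other 14 genes, 9 were higher and 5 lower in WD+7KC relative to WD (median 0.11), or 12 and 2 after rescaling (median 0.33), and 4 were higher and 10 lower in CD+7KC relative to CD (median -0.35). Stat3 itself was the lowest in the latter, at 25.6 FPKM without and 15.1 FPKM with 7KC (-0.76), and Orm2, for an orosomucoid, the highest in both 7KC comparisons, at 0.53 and 0.75. Fga, a fibrinogen chain gene, was the lowest in WD+7KC relative to WD, at -0.27. In WD relative to CD 3 were higher and 11 lower, from Il6ra at -0.86 to Saa3 at 0.69, and in WD+7KC relative to CD+7KC 9 were higher and 5 lower, from Orm1 at -0.31 to Socs3, a STAT3 feedback inhibitor, at 0.57. After rescaling the latter split was 12 higher and 2 lower, with a median of 0.44 in place of 0.23.

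**Figure D5:**
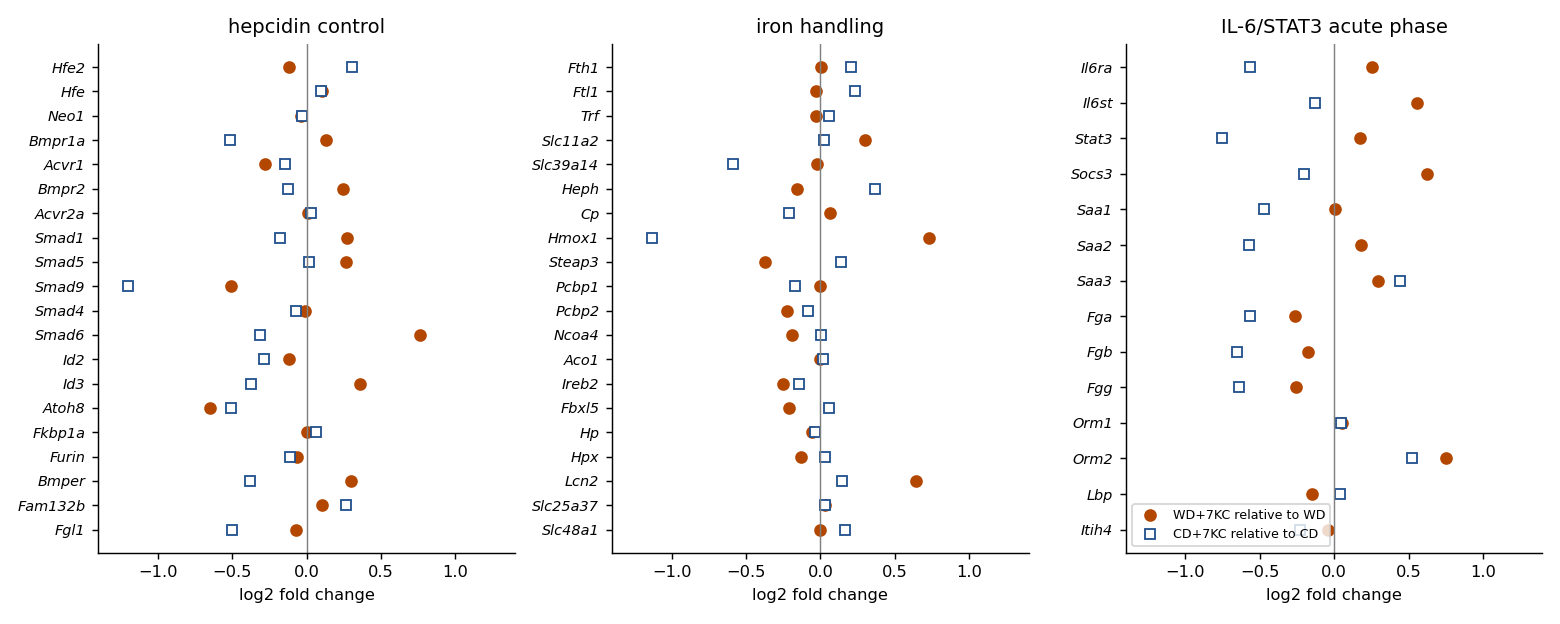
Log2 fold change with 7KC under each diet (filled circles WD+7KC relative to WD, open squares CD+7KC relative to CD) for the other hepcidin control, iron handling and acute phase genes; Il6, listed at 0 FPKM, is left out. Smad9 at -1.20 and Hmox1 at -1.13, both under CD, are the points below -1.

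The genes whose profile over the 4 libraries was most like that of a member were found among 6643 genes of at least 5 FPKM, by the root-mean-square difference of centred log2 values. For Bmp2 they were Oit3 (0.05), Esam (0.07) and Cd55 (0.08), where Oit3 and Esam are known from endothelial cells. For Hamp they were Ccl19 (0.10), Apoa1 (0.10) and Fbxo21 (0.13), and Apoa1, the main HDL apolipoprotein gene, was at 7081 FPKM (CD), 4322 FPKM (CD+7KC), 8322 FPKM (WD) and 5501 FPKM (WD+7KC). For Id1 they were Plgrkt (0.06), Rce1 (0.06) and Col4a1 (0.08). For Hamp2 the nearest were farther away, Cbr3 (0.42), Gstm3 (0.44) and 9030619P08Rik (0.58). With 4 points per gene and so many candidates such likeness is a description only.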

How the data were processed

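Per the labels and the methods of the study, stranded mRNA libraries were sequenced as single-end reads, mapped to mm10 with TopHat2 2.0.13, Bowtie2 2.2.3 and SAMtools 0.1.19, and the authors deposited 1 FPKM value per gene from Cufflinks 2.2.1 for each library. The annotation and the handling of reads that match several genes are not given in the sources used here.

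Log2 ratios were taken after adding a pseudocount of 0.1 to each value, leaving out genes at 0 FPKM in both libraries of a comparison. Reads were estimated from the shortest RefSeq mRNA of a gene (GENCODE vM21) minus 200 bases and the depth. Depth came from genes with a single mRNA over 500 bases. The 4 groups of 1 library allow no test. The alternatives were 3 pseudocount settings, a filter, 4 scalings and a 1.5-fold threshold. The scalings were to equal sums, to equal sums without the 20 highest genes, to equal upper quartiles and by the median ratio of genes between libraries. Summing Hamp and Hamp2 was added after seeing the data.

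The members and lists were chosen with earlier results of these data known. Beside the members, the rule was to name the highest and lowest genes of each list with a mean of at least 1 FPKM. Among the marker lists it covered only those of endothelial and Kupffer cells with 7KC, and Cd163 in WD relative to CD was added after its value was seen. It also covered the 3 genes most like each member whose log2 level spans over 1. Fth1, Alb and Hba-a1 values, those of single neutrophil and lymphocyte markers, and levels of genes already named, were chosen after their values were seen. Of the listed genes, Flvcr1, Hbb-bt and Ly6g were not matched. Of the marker lists, the hepatocyte list had a median log2 difference of -0.19 in WD+7KC relative to WD (8 genes), the stellate cell list -0.16 (6 genes), the erythroid list -0.18 (6 genes), the lymphocyte list 0.44 (6 genes) and the neutrophil list -0.82 (4 genes); after rescaling, the hepatocyte and stellate cell medians were 0.03 and 0.05. In CD+7KC relative to CD the deposited values gave -0.18, -0.20, -0.05, 0.97 and -0.20. The neutrophil median under WD was lowered by weakly expressed genes, Ngp (0.442 to 0.086 FPKM with 7KC) and Camp (0.269 to 0 FPKM). S100a8 (4.58 to 11.1 FPKM) had a log2 difference of 1.26 and S100a9 of -0.09. The summed neutrophil level went from 13.4 to 18.8 FPKM, so that median does not show lower neutrophil RNA. The lymphocyte genes were also low, at most 1.45 FPKM (Cd79a in CD+7KC). Promoter sequences came from RefSeq (GRCm38.p6). The code was tested on simulated data based on the WD library: of 200 changed genes, 100.0% had the right direction and 94.5% of the counting intervals held the true value. These genes were well expressed, changed at least 2-fold and had counting error only, with depth and length known exactly. Bmp2, Bmp6 and Smad7 were below the level required of them in WD. The simulation therefore checks the code and not the estimated depth, smaller differences or reads shared by Hamp and Hamp2. Python 3.11.15, numpy 2.4.6, pandas 2.3.3, scipy 1.17.1, Biopython 1.88 and matplotlib 3.10.9 were used.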

Additional observations from a re-analysis of the deposited data

Results flagged for a closer look

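In 4 of the 10 genes the difference between the libraries with and without 7KC had opposite directions under the diets, which with 1 library per group is a difference between 4 libraries and was not tested against the variation between mice. The log2 difference in WD+7KC relative to WD minus that in CD+7KC relative to CD was -2.96 for Hamp2 (95% counting interval -3.33 to -2.59), 1.17 for Id1 (0.48 to 1.85), 0.49 for Slc40a1 (0.37 to 0.62) and -0.11 for Tmprss6 (-0.19 to -0.04). For Slc40a1 the intervals under both diets lay on opposite sides of 0 with the deposited and with the rescaled values. For Hamp2 the interval under WD included 0 after rescaling, for Id1 the interval under CD included 0, and for Tmprss6 the direction under WD turned with rescaling, after which the difference between the diets was 0.062 (-0.02 to 0.14). After rescaling it was -2.78 for Hamp2, 1.34 for Id1 and 0.67 for Slc40a1 (0.55 to 0.80).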

How the results depend on the processing

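Each count of genes past the 2-fold threshold stayed at 1, and named the same gene, under the 3 pseudocount settings, the filter of at least 1 FPKM and the 4 scalings. With a 1.5-fold threshold it was 3 in WD+7KC relative to WD (Hamp, Bmp2 and Id1), 3 in CD+7KC relative to CD (Hamp, Hamp2 and Bmp6), 1 in WD relative to CD and 4 in WD+7KC relative to CD+7KC (Hamp2, Bmp2, Id1 and Tfrc). Of 324 recomputed log2 differences, 302 stayed inside their counting interval, 20 moved outside it, and 2 whose interval had left out 0 changed direction, both for Tmprss6 in WD+7KC relative to WD, to 0.11 after rescaling to equal sums and to 0.070 after rescaling without the 20 highest genes. A further 5 values whose interval included 0 also changed sign: Smad7 in WD+7KC relative to WD went from -0.04 to 0.17 and 0.13 under these scalings and 0.005 with upper-quartile scaling, and Slc40a1 in WD+7KC relative to CD+7KC went from -0.06 to 0.15 and 0.13. The values that moved outside came from rescaling to equal sums (9), rescaling without the 20 highest genes (8) and summing Hamp and Hamp2 (3). With upper-quartile and with median-ratio scaling, all 40 differences stayed inside their intervals. With Hamp and Hamp2 summed, the Hamp difference was -0.39 in CD+7KC relative to CD, -0.65 in WD+7KC relative to WD, 0.54 in WD relative to CD and 0.29 in WD+7KC relative to CD+7KC. No paired analysis was possible because each group has 1 library and the result comes from no test, and leaving out a replicate was not possible for the same reason. Depth limits Bmp6, with 24 to 57 estimated reads, and Smad7, with 73 to 100.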
